A study of Saccharomyces cerevisiae with 2 samples.

Results

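The oxidative stress and thioredoxin defence genes described here are 10 genes of Saccharomyces cerevisiae, chosen by name: SOD1, SOD2, CTT1, TSA1, AHP1, TRX1, TRX2, TRR1, YAP1 and GSH1. All 10 are among the 4685 genes of the deposited table, and all 10 are among the 4642 genes whose mean of RNA and footprint RPKM was at least 5. The study measured RNA and ribosome-protected fragments in the budding yeast strain BY4741, a haploid auxotrophic laboratory strain, grown without added oxidant to mid-log phase in YPD, a rich glucose medium. RNA was enriched for the cytoplasm and depleted of rRNA before sequencing and footprints are the mRNA pieces that ribosomes shield from nuclease. Each assay has 1 library, so values carry no error between replicates and differences between genes are given without a test. Values are RPKM, reads normalised to gene length and to library size, which allows levels to be compared between genes.

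Cells that use oxygen make superoxide and hydrogen peroxide. Superoxide dismutases turn superoxide into hydrogen peroxide, and catalases, peroxiredoxins and glutathione peroxidases remove the peroxide. Peroxiredoxins are reduced again by thioredoxins, thioredoxins by thioredoxin reductase, and the reductase by NADPH, while glutathione and glutaredoxins form a parallel thiol system. In yeast the transcription factor Yap1 is known to accumulate in the nucleus on peroxide stress and to activate many of these genes, and Msn2 and Msn4 act through stress response elements in promoters such as that of CTT1.

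Because several of these proteins have a close relative, the coding sequences were first compared, to see whether a read could be placed on one gene. The codons around the thioredoxin active site are shown for the cytosolic thioredoxins TRX1 and TRX2 and the mitochondrial TRX3, since this is the catalytic stretch of the protein. The sequences are from the reference assembly R64, coding strand, 5′ to 3′, and capitals mark the codons for cysteine, glycine, proline and cysteine (codons 30 to 33 of TRX1, 31 to 34 of TRX2 and 55 to 58 of TRX3).
TRX1: gccacttggTGCGGTCCATGTaaaatgatt
TRX2: gccacatggTGTGGGCCATGTaaaatgatt
TRX3: gctacttggTGTGGCCCCTGTaagatgatg
Within these 30 bases TRX1 and TRX2 differed at 3 positions, and TRX3 differed from each of them at 6. Over the whole coding sequence TRX1 and TRX2 were identical at 75.2% of aligned bases and, once translated, at 78.6% of aligned residues. Their longest exact shared run was 17 bases, ccatgtaaaatgattgc, which begins inside the active-site codons. TSA1 and its paralog TSA2 were identical at 78.5% of bases with a longest shared run of 14, and TRR1 and its mitochondrial paralog TRR2 at 77.4% of aligned bases with a longest run of 20. No window of 28 bases, near the length of a footprint, from any of the 10 coding sequences occurred elsewhere in the genome, so an exact match of that length places a read on 1 gene.

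All 10 genes have a single coding exon. On R64, AHP1 (YLR109W) lies on chromosome XII from 368781 to 369311 and TRX1 (YLR043C) on the same chromosome from 231702 to 232013. TSA1 (YML028W) lies on chromosome XIII from 220138 to 220728, and YAP1 (YML007W) on chromosome XIII from 253848 to 255800. SOD1 (YJR104C) is at 622550 to 623014 and GSH1 (YJL101C) at 234320 to 236356, both on chromosome X. TRX2 (YGR209C) is at 912913 to 913227 and CTT1 (YGR088W) at 654634 to 656322, both on chromosome VII. SOD2 (YHR008C) is on chromosome VIII from 122889 to 123590, and TRR1 (YDR353W) on chromosome IV from 1183299 to 1184258.

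The defence genes covered nearly the whole range of expression of the 4642 analysed genes, a set without genes under the authors' limit of 10 RPM of RNA. The thiol peroxidase AHP1 had 522 times the RNA level and 3681 times the footprint level of the cytosolic catalase CTT1, and without CTT1 the members still spanned 63.0-fold in RNA and 276-fold in footprints. The order of the 10 genes was the same in RNA and in footprints. Their median level was 611 RPKM in RNA and 950 RPKM in footprints, against 49.6 and 39.4 RPKM over all analysed genes. By RPKM times coding length they took 0.693% of the RNA and 1.19% of the footprints of the table, of which AHP1 alone took 0.271% and 0.525%. Levels are averages over a culture, in which fewer cells with an mRNA and less of it per cell cannot be told apart.

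Ribosome density was taken as log2 of footprint RPKM over RNA RPKM, set to 0 at the median of the 4642 genes, where the plain ratio was 0.821. It counts footprints per unit of mRNA length, not per molecule. Of the 10 members, 5 exceeded the median gene by more than 2-fold (a density over 1), where 6.79% of all analysed genes were, and 1 was more than 2-fold below, where 13.1% were. The median density of the members was 0.94, and 7 of 10 were above the median gene. With densities centred instead on total footprints over total RNA, the median gene lay at -0.38. On that scale no member was more than 2-fold above, where 1.66% of all analysed genes were. More than 2-fold below were 2 members and 23.5% of all analysed genes.

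**Figure D1:**
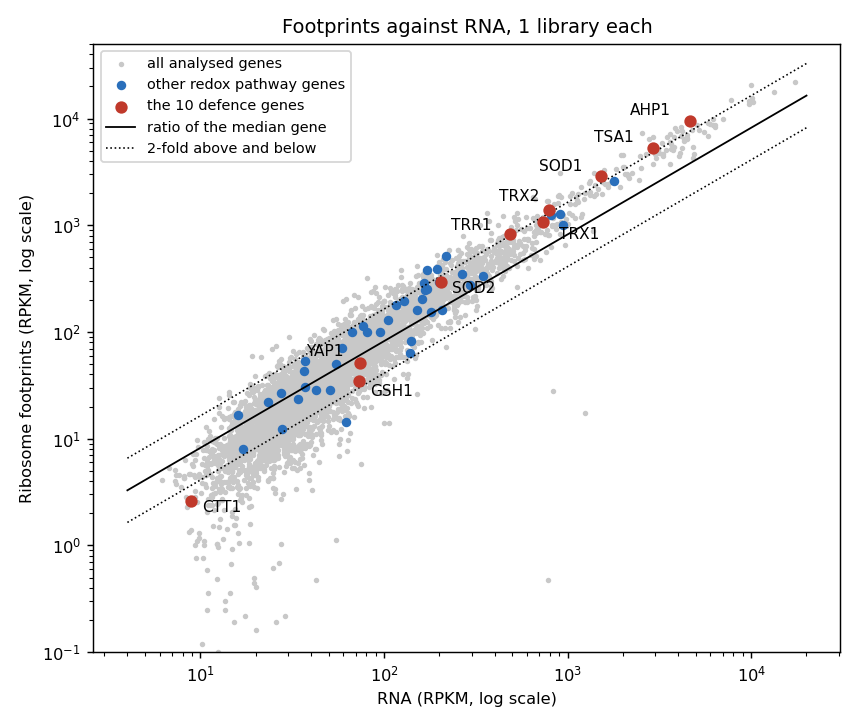
Footprint RPKM (vertical, log scale) against RNA RPKM (horizontal, log scale) for the analysed genes (grey), the redox genes of the wider pathway lists (blue) and the 10 defence genes (red), 1 library per assay; 5 genes with footprints under 0.1 RPKM lie below the axis. The solid line is the ratio of the median gene and the dotted lines are 2-fold from it. AHP1, TSA1, SOD1, TRX2 and TRR1 sit above the upper dotted line, and CTT1 sits below the lower one.

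The peroxiredoxins led the group. AHP1, which reduces alkyl hydroperoxides, had RNA at 4629 RPKM and footprints at 9571 RPKM, rank 24 and rank 11 of the analysed genes. TSA1, the main cytosolic peroxiredoxin and a chaperone, had RNA at 2934 RPKM and footprints at 5347 RPKM, rank 58 and rank 44. AHP1 was thus 1.58 times TSA1 in RNA and 1.79 times in footprints. Their densities were 1.33 and 1.15, or 2.52 and 2.22 times the median gene. The other peroxiredoxins were far less abundant. TSA2, the stress-inducible paralog of TSA1, had RNA at 27.4 RPKM and footprints at 27.1 RPKM with a density of 0.27. TSA1 therefore exceeded TSA2 107-fold in RNA and 198-fold in footprints, although both reading frames are 591 nt long. The mitochondrial peroxiredoxin PRX1 had 105 and 131 RPKM (density 0.59), and the nuclear DOT5 had 81.0 and 99.6 RPKM (density 0.58). All 5 analysed genes of this group were above the median gene. TSA2 was the exception on other scales, at -0.32 against genes of like coding length and at -0.11 when centred on totals, where the median gene was at -0.38. With both coding length and RNA level adjusted 3 of the 5 were above 0, TSA2 among them at 0.06. AHP1 (-0.42) and TSA1 (-0.40) were then below 0. The gene of sulfiredoxin, SRX1, was not analysed here.

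The thioredoxin system was lower in level than SOD1 and both abundant peroxiredoxins. TRX1 had RNA at 735 RPKM and footprints at 1064 RPKM, and TRX2 had 796 and 1379. The isoforms were thus within 1.08-fold in RNA and 1.30-fold in footprints. Their densities were 0.82 for TRX1 and 1.08 for TRX2, which put only TRX2 past 2-fold, and without a replicate the gap of 0.26 between them cannot be set against any error. TRR1, the cytosolic thioredoxin reductase that recharges both, had RNA at 486 RPKM and footprints at 837 RPKM, a density of 1.07. Per unit length TRX2 carried 1.65 times the footprints of TRR1, and TRX1 carried 1.27 times.

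The mitochondrial counterparts were lower in both measures. TRX3 had RNA at 94.7 RPKM and footprints at 99.4 RPKM (density 0.35), so that TRX1 exceeded it 7.76-fold in RNA and 10.7-fold in footprints. TRR2 had RNA at 27.7 RPKM and footprints at 12.3 RPKM, a density of -0.89. TRR1 and TRR2 differed 17.5-fold in RNA and 68.1-fold in footprints, and their densities differed by 1.96, the widest gap among the paralog pairs compared (TSA1 with TSA2, TRX1 with TRX2, TRX1 with TRX3, TRR1 with TRR2 and YAP1 with CAD1). With density adjusted for coding length that gap was 1.91. Both reductases have nearly the same length, 960 and 1029 nt.

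Superoxide dismutation was led by the cytosolic enzyme. SOD1, the copper and zinc dismutase, had RNA at 1517 RPKM and footprints at 2888 RPKM (density 1.21). SOD2, the manganese dismutase of the mitochondrial matrix, had 205 and 292 RPKM (density 0.80). SOD1 exceeded SOD2 7.40-fold in RNA and 9.89-fold in footprints. CCS1, the chaperone that loads copper into Sod1, had RNA at 199 RPKM and footprints at 291 RPKM (density 0.83), close to SOD2 in both measures and 9.92-fold under SOD1 in footprints. The copper carrier ATX1 had 160 and 205 RPKM (density 0.64). MTM1, a mitochondrial carrier needed for Sod2 activity, had 62.0 RPKM of RNA but 14.3 RPKM of footprints. Its density of -1.83 was the lowest among the analysed genes of the wider lists.

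CTT1 stood at the bottom of the group. It had RNA at 8.86 RPKM and footprints at 2.60 RPKM, rank 4624 and rank 4570 of the 4642 analysed genes, with a density of -1.48 or 0.358 times the median gene. Converted with its coding length this is 15.0 RPM of RNA, near the authors' entry limit of 10 RPM, and 4.39 RPM of footprints. The peroxisomal catalase CTA1 was not analysed here. CCP1, the cytochrome c peroxidase of the mitochondrial intermembrane space, had RNA at 150 RPKM and footprints at 159 RPKM (density 0.37), 17.0-fold and 61.2-fold above CTT1. The density of CTT1 rests on the lowest values of the 10 members, and CTT1 drops out with a minimum mean of 20 RPKM.

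**Figure D2:**
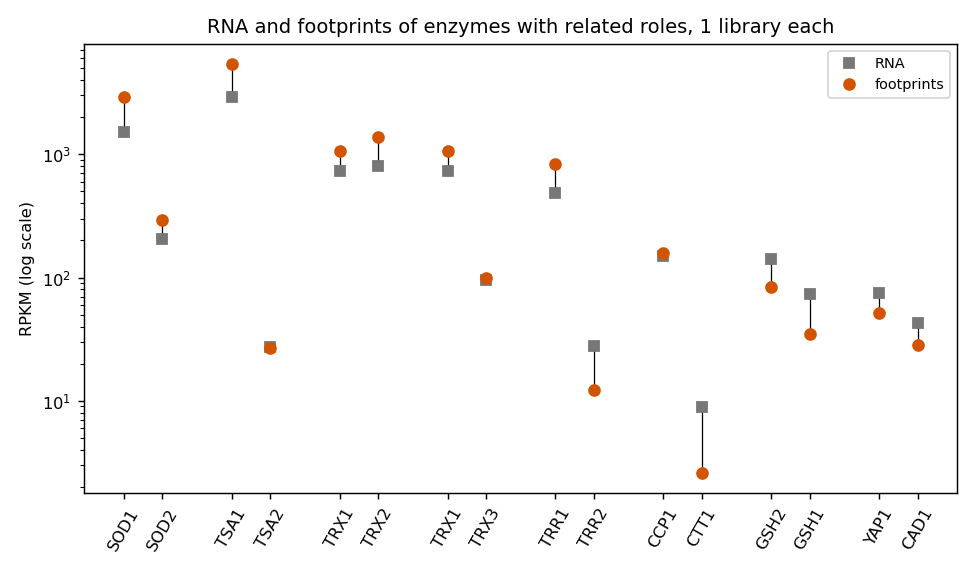
RNA (grey squares) and footprint (orange circles) RPKM on a log scale for genes with related roles, 1 library per assay and so without error bars. The cytosolic TSA1, TRX1, TRR1 and SOD1 lie above TSA2, TRX3, TRR2 and SOD2, TRX1 and TRX2 lie close together, and the footprint value is under the RNA value for TSA2 (by a small margin), TRR2, CTT1, GSH1, GSH2, YAP1 and CAD1.

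The glutathione genes were spread on both sides of the median gene. GSH1, the glutamate-cysteine ligase that catalyses the rate-limiting step, had RNA at 73.5 RPKM and footprints at 34.7 RPKM (density -0.80). GSH2, the glutathione synthetase, had 140 and 83.0 RPKM (density -0.47), 1.90 times GSH1 in RNA and 2.39 times in footprints. Both synthesis genes were thus below the median gene. GLR1, which reduces oxidised glutathione, had RNA at 171 RPKM and footprints at 251 RPKM, a density of 0.84 and the highest of this group of 6 listed genes. YCF1, the vacuolar transporter of glutathione conjugates, was the lowest at -0.84. The median density of the group was -0.13 with 3 of 6 above the median gene, against 0.82 and 4 of 5 for the thioredoxins and their reductases. Against genes of like coding length the order of these medians turned round, to 0.13 with 4 of 6 above and -0.10 with 2 of 5 above. GLR1 exceeded GSH1 2.33-fold in RNA and 7.25-fold in footprints. TRR1, the reductase of the thioredoxin side, exceeded GLR1 2.84-fold in RNA and 3.33-fold in footprints.

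The regulator YAP1 was expressed at the RNA level of GSH1, one of its known targets, and far below the most abundant members. It had RNA at 74.2 RPKM and footprints at 51.3 RPKM (density -0.25). The RNA of YAP1 was 1.01 times that of GSH1, and its footprints were 1.48 times. AHP1 exceeded YAP1 62.3-fold in RNA and 187-fold in footprints. CAD1, the related factor also called Yap2, had 42.4 and 28.5 RPKM (density -0.29). YBP1, which assists Yap1 oxidation, had 34.1 and 23.5 RPKM (density -0.25), and SKN7, a partner of Yap1 at several promoters, had 50.8 and 28.8 RPKM (density -0.53). The densities of YAP1 and CAD1 differed by 0.04. Of the 8 regulators 2 were above the median gene, with MSN4 highest at 0.33 and STB5 lowest at -0.82, and none was past 2-fold. Against genes of like coding length 5 of the 8 were above, with a median of 0.11 in place of -0.25, and with both length and RNA level adjusted 4 of the 8 were above. Centred on totals, 0 of the 8 were above 0, where 31.6% of all analysed genes were.

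The leader of YAP1 is known to carry a short upstream open reading frame. The complete frames in the 150 bases before the start codons of YAP1 and CAD1 are shown because both genes are known for such frames (R64, coding strand, capitals marking the start and stop codons).
YAP1: ATGaacacgagccattttTAG
CAD1: ATGgggtgttactttTAA
The frame of YAP1 has 6 codons before its stop and begins 85 bases before the main start codon, with 64 bases between its stop and that start. The frame of CAD1 has 5 codons and begins 56 bases before its start. Where transcripts begin is not known from these files, so a frame in this window need not be in the mRNA. Complete frames of this kind were present before 64.1% of all analysed genes and before 7 of the 10 members, and the median density of all genes with one was 0.01 against -0.02 for those without.

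The bases around the start codon are printed for all 10 members in order of density, since this context bears on initiation (R64, coding strand, 9 bases before, the start codon in capitals and 3 bases after).
AHP1: caacaaaacATGtct
SOD1: taatttataATGgtt
TSA1: acatacacaATGgtc
TRX2: acatcaataATGgtc
TRR1: ttatcaataATGgtt
TRX1: atacaaataATGgtt
SOD2: cgtaccaggATGttc
YAP1: tcttaaaccATGagt
GSH1: aagaataaaATGgga
CTT1: gcttcacaaATGaac
The third base before the start codon was A in 9 of the 10 members and in 61.4% of all analysed genes. CTT1, the member of lowest density, was the exception with C, a base found there in 8.64% of genes. Across all analysed genes the median density was 0.11 with A at that place, -0.10 with G, -0.32 with C and -0.33 with T. These medians are not adjusted for coding length or RNA level. Any part of this base in the density of CTT1 was not tested. GSH1, second lowest, has 7 A in the 9 bases before its start, more than any other member.

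The short members had the higher densities. TRX1 and TRX2 are the shortest at 312 and 315 nt, followed by SOD1 at 465, AHP1 at 531, TSA1 at 591, SOD2 at 702 and TRR1 at 960 nt, and these 7 are the members above the median gene. CTT1 with 1689, YAP1 with 1953 and GSH1 with 2037 nt are the longest and are the 3 below it. Density and coding length had a Spearman rho of -0.67 over the 10 members and -0.62 over all 4642 genes, given as a description since all points come from the same 2 libraries. The density of each gene was therefore also taken as its distance from the running median of the 200 genes nearest in coding length. On that scale no member was more than 2-fold above, where 2.11% of all genes were, and CTT1 at -1.26 was more than 2-fold below, where 9.44% were. All 5 calls above 2-fold thus ended with the length adjustment. The part of length in them was not tested otherwise.

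**Figure D3:**
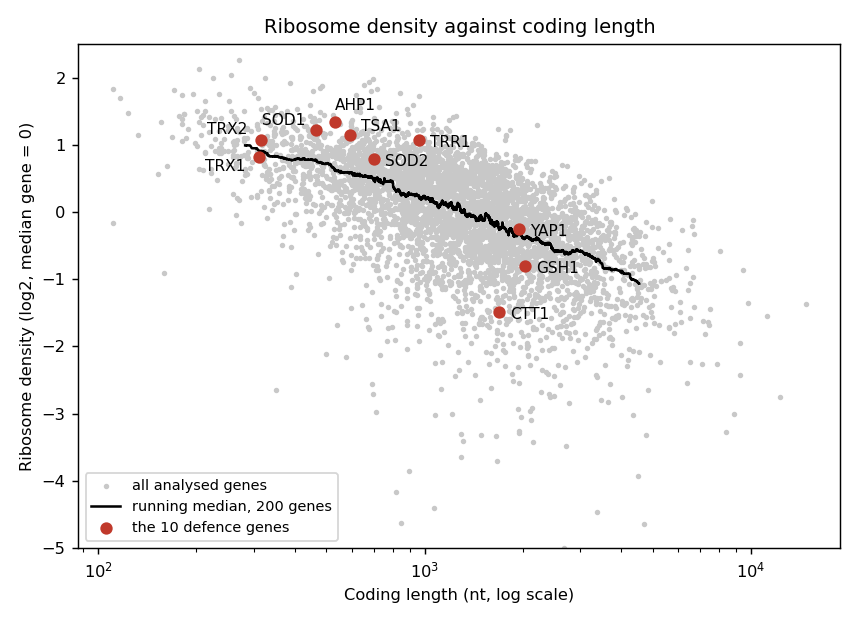
Ribosome density (log2, median gene at 0) against coding length in nucleotides on a log scale for the analysed genes (grey) with their running median over 200 genes (black line) and the 10 defence genes (red); 24 genes with a density under -5 lie below the axis. TRX1 and TRX2 lie near the line, TRR1, AHP1 and TSA1 lie above it, and CTT1 lies well below it.

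Length adjustment reordered the members. TRR1 was highest at 0.82, percentile 95.0 of all genes, while genes of its length had a median density of 0.25. AHP1 was 0.69, TSA1 0.56, SOD1 0.44 and SOD2 0.30. TRX2 was at 0.17 and TRX1 at -0.10, where genes of their lengths had median densities of 0.91 and 0.92. YAP1 was 0.07, above genes of like length, and GSH1 remained below them at -0.41. The isoform gap between TRX2 and TRX1 was 0.26 on either scale.

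RNA level went with density as well. The Spearman rho of density with RNA was 0.98 over the 10 members, 0.60 over the 51 analysed genes of the wider lists and 0.53 over all genes, again as a description, with RNA entering both measures. Density was also fitted by a straight line on log2 coding length and log2 RNA over all genes, and the residuals were centred on their median. On that scale AHP1 was at -0.42, TSA1 at -0.40, SOD1 at -0.29, TRX2 at -0.47 and TRX1 at -0.72. These abundant members thus lay below the median residual. Other genes of high RNA level lay below the median residual too, such as CDC19 (-0.43), PGK1 (-0.67) and EFB1 (-0.63), while ECM33 (0.20) lay above. How well a straight line fits the highest RNA levels was not tested. TRR1 at 0.32 and SOD2 at 0.11 lay above the median residual. GSH1 at -0.56 and CTT1 at -0.74 were below it too, and YAP1 at -0.03 was near it.

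**Figure D4:**
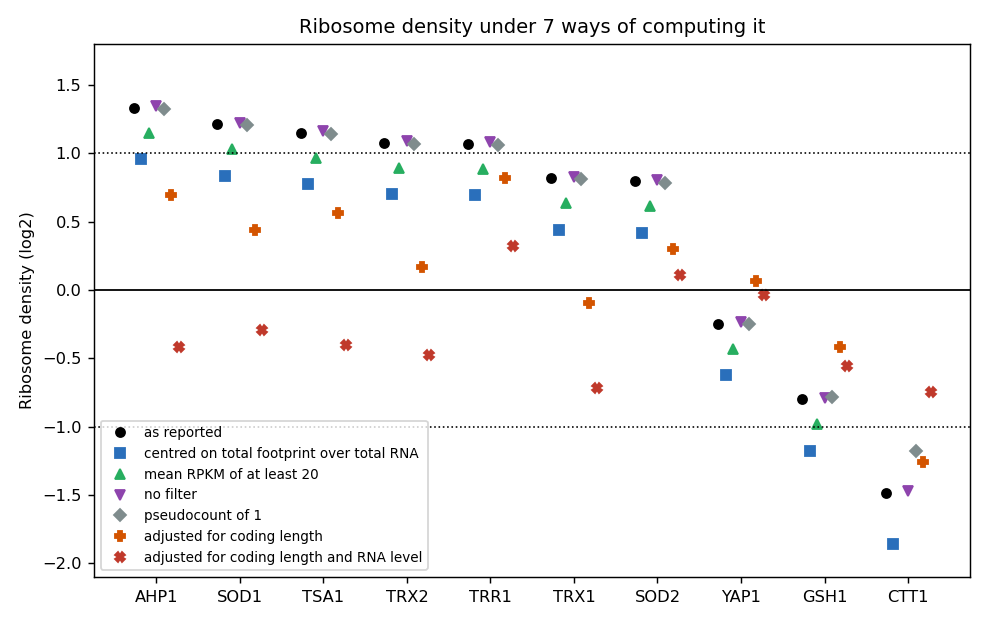
Ribosome density of the 10 members (log2) as reported and under 6 other ways of computing it, 1 symbol per setting, with dotted lines at 2-fold above and below. The filter and pseudocount settings lie near the reported value, the length-adjusted values lie lower for the short abundant genes, and GSH1 and CTT1 are below 0 throughout.

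Codon usage differed widely between the members. Codon adaptation, the likeness of a gene's codons to those of ribosomal protein genes, was 0.75 for TSA1, 0.60 for AHP1, 0.57 for TRX1, 0.50 for TRX2, 0.44 for SOD1 and 0.37 for TRR1. It was 0.28 for SOD2, 0.21 for YAP1 and 0.19 for GSH1, against a median of 0.20 over all analysed genes. CTT1 stood at percentile 88.5 with 0.31, although its RNA was at percentile 0.399. The paralog TSA2 was similar, at percentile 92.0 in codon adaptation with 27.4 RPKM of RNA.

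Matches to known promoter elements were sought in the 500 bases before each start codon on both strands. The Yap1 element was TTACTAA or its reverse complement TTAGTAA. It was found before TRX2, SOD1, SOD2 and AHP1, so 4 of 10 members, and before 12.1% of all analysed genes. The match of AHP1 began 494 bases before its start, near the end of the window. No other form of the element was searched, so a member without a match is not shown to lack a Yap1 site. TRX2 was the member with more than 1 match, and both are printed with 10 bases on each side (R64, coding strand, capitals marking the element).
TRX2 chrVII:913392-913418: ggctcttttcTTACTAAgcgcgttcag
TRX2 chrVII:913428-913454: gtttatactcTTAGTAAaggatgctcc
The stress response element, AGGGG or CCCCT, was found before 7 of 10 members and 33.6% of all analysed genes. CTT1 and AHP1 had 3 matches each, which was the most. The match of CTT1 nearest to its start, 133 bases before it, and that of AHP1, 165 bases before it, are printed in the same way.
CTT1 chrVII:654491-654515: tttatcgtatCCCCTactgctacac
AHP1 chrXII:368606-368630: tgaaaaataaAGGGGtggaaaatta
CTT1 and AHP1, with as many matches as each other, were the members of lowest and highest RNA level in these unstressed cells. A match is a string of letters and not a shown site, and the window can reach into a neighbouring gene.

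The wider redox lists showed how far the 10 genes speak for the pathway. The lists name 58 genes, of which 52 are in the table and 51 were analysed. Among those 51, members included, 9 exceeded the median gene by more than 2-fold (17.6%) and 2 were more than 2-fold below (3.92%), with a median density of 0.58. Of the 41 that are no members, 4 were above (9.76%) and 1 below (2.44%), with a median of 0.50. Over all analysed genes 6.79% were above and 13.1% below. Adjusted for length, the 51 genes had a median of 0.22, with 1 more than 2-fold above and 3 below, which were MTM1 (-1.91), CTT1 and TRR2 (-1.10). With total centring, 2 were above (3.92%) and 6 below (11.8%), where 1.66% and 23.5% of all analysed genes were.

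The 4 other genes past 2-fold above all encode thiol redox proteins, as do many other genes of the lists. They were the glutaredoxins GRX1 (1.52), GRX2 (1.28) and GRX3 (1.09), which reduce glutathione-bound thiols or, for GRX3, take part in iron regulation, and HYR1 (1.44), the peroxidase also called Gpx3 that senses peroxide for Yap1. GRX1 had RNA at 218 RPKM and footprints at 514 RPKM, under TRX2, which exceeded it 3.66-fold in RNA and 2.68-fold in footprints. HYR1 had RNA at 171 RPKM and footprints at 382 RPKM, and TSA1 exceeded it 17.1-fold and 14.0-fold. GPX2 was lower than HYR1 at 0.89. Against genes of like coding length GRX1 was at 0.67, GRX2 at 0.50, GRX3 at 0.64 and HYR1 at 0.72. These 4 calls thus ended with the length adjustment. The thiol redox genes TRX3 (0.35), TSA2 (0.27) and TRR2 (-0.89) were not past 2-fold on the reported scale. All 7 listed glutaredoxins were above the median gene, with GRX4 lowest at 0.15, and the methionine sulfoxide reductases MXR1 (0.91) and MXR2 (0.85) were above it too. GRX4 was on the other side of 0, at -0.31 against genes of like coding length and at -0.23 when centred on totals. That left 6 of 7 glutaredoxins above 0 on either scale, where 50% and 31.6% of all analysed genes were. With both length and RNA level adjusted 5 of 7 were above 0.

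**Figure D5:**
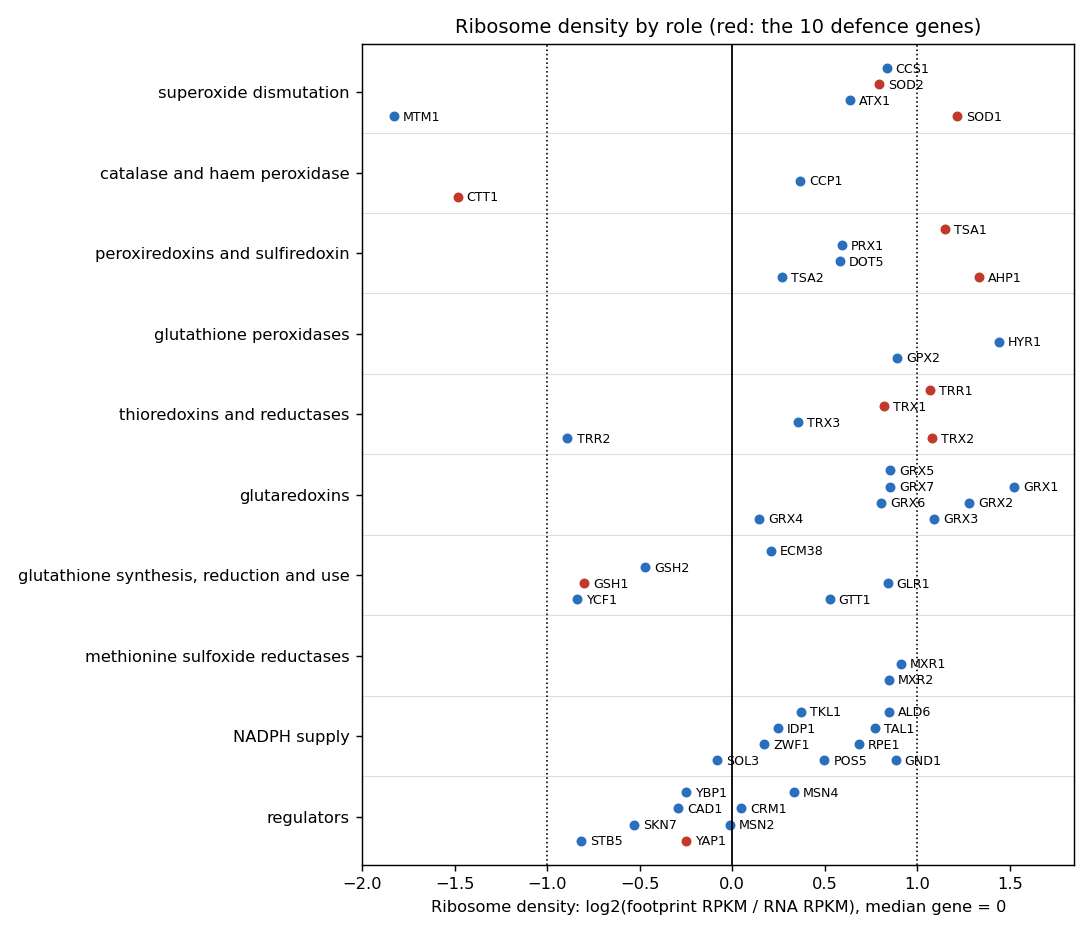
Ribosome density (log2, median gene at 0, dotted lines 2-fold from it) of the analysed redox genes by role, with the 10 defence genes in red and the others in blue, 1 point per gene. Peroxiredoxins, glutathione peroxidases, glutaredoxins and methionine sulfoxide reductases lie wholly above 0 on this scale, and 6 of the 8 regulators lie below it. Adjusted for coding length, TSA2 and GRX4 are below 0 and 5 of the 8 regulators above it.

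The genes listed under NADPH supply lay close to the median gene or above it. Not all of them encode enzymes that make NADPH themselves, as SOL3, RPE1, TKL1 and TAL1 do not. Of the 9 analysed, 8 were above the median gene and none was past 2-fold, with a median of 0.50. Centred on totals 5 of the 9 were above 0, where 31.6% of all analysed genes were. With length and RNA level adjusted 2 of the 9 were above 0, where 50% of all analysed genes were. GND1, the main phosphogluconate dehydrogenase, was highest at 0.88 (816 RPKM in RNA, 1236 RPKM in footprints), and SOL3, the lactonase before it, was lowest at -0.08 (207 and 161 RPKM). IDP2, the cytosolic isocitrate dehydrogenase, was listed with RNA at 8.79 RPKM and footprints at 0.14 RPKM, under the expression filter. GND1 was also the gene of the wider lists past 2-fold above genes of like length, at 1.01.

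The genes nearest to the extremes of the group in both libraries were found by their distance on log2 RNA and log2 footprint RPKM, which rests on 2 values per gene. Nearest to AHP1 were the ribosomal protein genes RPL43A (5095 and 8711 RPKM, distance 0.19) and RPL29 (4122 and 8389 RPKM, distance 0.25). RPL43A has a near-identical copy, so its value is uncertain. Nearest to CTT1 were SNF3, a glucose sensor (9.53 and 2.55 RPKM, distance 0.11), and MEP2, an ammonium permease (8.52 and 2.37 RPKM, distance 0.15).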

How the data were processed

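Per the file headers, the authors deposited RPKM values per gene for 1 RNA-seq and 1 ribosome footprint library, and kept genes with at least 10 RPM of RNA and above 0 RPM of footprints. The authors' deposited log2 ratio column equalled the log2 ratio of the RPKM columns, with a largest difference of 1.63e-09. The build is sacCer3 per the submitters' processing notes, which is assembly R64. The aligner and the counting rule: not given in the sources used here. All 4685 identifiers matched the R64 annotation, from which coding lengths, symbols and sequences were taken. Low footprint values fell on no series of whole reads (at the best of 2000 trial steps 53.3% of 15 testable genes among the 100 lowest, and 42.9% of 42 among the 200 lowest, lay within 0.15 of a whole read, both settings chosen after seeing the data), so the sequencing depth is unknown and counting intervals are left out.

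Density was log2 of footprint RPKM over RNA RPKM, without a pseudocount, over genes whose RPKM values averaged at least 5, and was centred on their median. Length adjustment used a running median over 200 genes, and a least squares fit used log2 coding length and log2 RNA. The values from both adjustments were then centred on their median. Both were tried on simulated data made with straight-line trends in log2 length and log2 RNA. For the running median the simulated RNA trend was first taken out. That trial cannot show how well either step fits the real trends. Codon weights came from 131 ribosomal protein genes, each codon count raised by 0.5. Python 3.11.15, pandas 2.3.3, scipy 1.17.1 and biopython 1.88 were used. Past 2-fold of the median gene is the rule of size used. The members, the gene lists and the rules were chosen with earlier results of these data known. Named genes are the 10 members, their paralogs, the highest and lowest gene of each list and the nearest genes of the members highest and lowest in density. Others were named after their values were seen.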

Additional observations from a re-analysis of the deposited data

How the results depend on the processing

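No paired analysis was possible because there is 1 library per assay, and for the same reason no replicate could be left out. Without a filter or with a pseudocount of 1, the number of members more than 2-fold above or below the median gene was as reported. Centred on total footprints over total RNA, 0 members were more than 2-fold above and 2 below, with 2 and 6 of the pathway genes and 1.66% and 23.5% of all analysed genes. With a minimum mean of 20 RPKM these were 2 above and 0 below among the members, without CTT1. Among the pathway genes 5 were above and 3 below. The share of all genes past 2-fold at that minimum was not computed. Adjusted for coding length, 0 members and 1 pathway gene were above and the members' median was 0.23. Adjusted for coding length and RNA level, 0 members and 0 pathway genes were above, where 1.70% of all analysed genes were. More than 2-fold below were 0 members and 1 pathway gene, where 7.07% of all analysed genes were. The medians were -0.41 for the members and -0.011 for the pathway genes. In that fit the densities of AHP1 (-0.42), TSA1 (-0.40), SOD1 (-0.29), TRX2 (-0.47) and TRX1 (-0.72) changed sign. With coding length alone adjusted, TRX1 (-0.10) and YAP1 (0.07) changed sign. The cause was not tested. Without CTT1, an alternative chosen after seeing the data, the members' median was 1.07. SOD2, TRR1, GSH1 and CTT1 kept their sign under each alternative that gave a value. Without replicates or a known depth, small gaps such as that of TRX1 and TRX2 cannot be set against an error.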
